A study of Mus musculus with 12 samples.

Results

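The acetyl-CoA supply genes followed here were Acly, Acss1, Acss2, Pdha1, Pdhb, Dlat, Crat and Slc25a1, 8 of the 21501 protein-coding mouse genes that could be read in the data. They were taken by name from the enzymes and carriers that make acetyl-CoA or move it out of the mitochondrion, and each was read over its span on GRCm38 with 5 kb on each side. The data were peak lists of H3K27ac, the acetyl mark on lysine of histone H3 found at active promoters and enhancers, measured by chromatin immunoprecipitation and sequencing. There were 3 libraries of Azin2-/- cells (replicates 1, 2 and 8) and 3 of wild-type cells (replicates 1, 2 and 2b). Azin2 encodes antizyme inhibitor 2, a protein that promotes polyamine synthesis, and the study compared the mark in fat cell precursors with and without it. All cells were adipocyte progenitors from mouse subcutaneous fat, grown for 1 week, then given insulin, IBMX, dexamethasone and rosiglitazone for 2 days and insulin alone for another 5 days, which is a standard recipe for making fat cells. The labels name neither the age, sex and strain of the mice nor the kind of Azin2 deletion, and they do not say whether each library came from its own animal. The p-values therefore measure only the spread between these libraries, which may be technical.

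Acetyl-CoA is both the building block of fatty acids and the donor of the acetyl groups that acetyltransferases place on histones. In mitochondria the pyruvate dehydrogenase complex makes it from pyruvate, and since it cannot cross the inner membrane it leaves as citrate, which is split again in the cytosol and nucleus. Acetate and acetylcarnitine are further sources, and fat cells draw heavily on the citrate route when they make lipid.

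Of the 8 genes, 7 had peaks. Pdha1 and Dlat of the mitochondrial complex and the acetate enzymes Acss1 and Acss2 carried strong acetylation at the gene start in 5 or 6 of the 6 libraries, and Crat did so at 1 end of the gene. Pdhb carried it in 2 libraries, both Azin2-/-. Of all genes with a placed start, 5.82% carried it in exactly 2 of the 6 libraries, of either genotype. How many carried it in Azin2-/- libraries only was not counted. Acly, the enzyme that splits citrate, carried none at its start in any library. No difference between Azin2-/- and wild-type libraries passed the test in these 7 genes, and in each the libraries of the genotypes overlapped. Slc25a1, the mitochondrial citrate carrier (chr16:17925211-17928219), lay in a stretch of 46.0 kb with no row of any strength in any of the 6 lists, together with Gsc2. A stretch of that length held 16.6 rows per list on average, and 648 of the 21501 genes had no row at all. Slc25a1 was therefore not analysed here.

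The 6 lists held between 741843 and 1216000 peaks each, most of them weak. The 30000 peaks of smallest p in each library were therefore used and are called strong below. They covered 28.9, 22.6 and 21.1 Mb in Azin2-/- replicates 1, 2 and 8, against 16.8, 21.9 and 28.0 Mb in wild-type replicates 1, 2 and 2b. The deposited q-value at the last rank was 0.0299, 0.0705 and 0.116 in Azin2-/- libraries, against 0.185, 0.0533 and 0.0664 in wild-type libraries. In Azin2-/- libraries 54847, 18742 and 13843 peaks had a q of 0.05 or less. In wild-type libraries 21544, 16587 and 15737 did. Strong thus means a rank, and in all libraries but Azin2-/- replicate 1 it includes peaks with a q above 0.05. Read totals are not given in the lists, and the median local background under the peaks stood in for depth: 0.299, 0.462 and 1.01 reads in the Azin2-/- libraries, against 0.164, 0.433 and 0.303 reads in the wild-type libraries. Azin2-/- replicate 8 thus had the deepest background and wild-type replicate 1 the shallowest. Azin2 itself carried 1176, 870 and 1492 bp of strong peaks in Azin2-/- libraries, against 1434, 1150 and 2426 bp in wild-type libraries, which checks no label, because the deleted part is not stated and a peak outside it would remain. Of 7 progenitor markers each had a strong peak in at least 1 library, as had 17848 of all 21501 genes. Pdgfra had one in all 6, Cd34, Dpp4 and Dlk1 in 4, Pdgfrb and Pi16 in 3 and Ly6a in 1. Of 7 fat cell markers Cebpa and Plin1 had one in all 6 libraries, Pparg in 5, Lpl and Cidec in 2, Fabp4 in 1 and Adipoq in none. Plin1 had none at its start in any library. The epithelial markers Epcam and Cdh1 also had a strong peak in all 6 libraries. The markers of other cells were not at 0. Over 4 muscle genes the summed strong cover was 3373 to 5368 bp in Azin2-/- libraries and 0 to 3474 bp in wild-type libraries, with Myog at 0 in all 6. Myod1 had 707, 690 and 1113 bp in Azin2-/- libraries, against 0, 0 and 0 bp in wild-type libraries, without overlap. Its cover was too low for the test. Among all 6161 genes with some strong cover but too little for the test, 2.08% were higher in Azin2-/- without overlap. Pax7 had 4661, 3957 and 2260 bp in Azin2-/- libraries, against 0, 2355 and 3474 bp in wild-type libraries, and overlapped. Over 4 endothelial genes it was 2500 to 4981 bp in Azin2-/- libraries, against 780 to 4575 bp in wild-type ones. Over 4 leukocyte genes it was 806 to 2771 bp in Azin2-/- libraries, against 301 to 1531 bp in wild-type ones, and over 4 epithelial genes 2150 to 4523 bp in Azin2-/- libraries, against 1438 to 3308 bp in wild-type ones. The part of other cells in the values below was not tested. In chromatin from many cells, fewer cells with the mark and less of it per cell cannot be told apart.

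**Figure D1:**
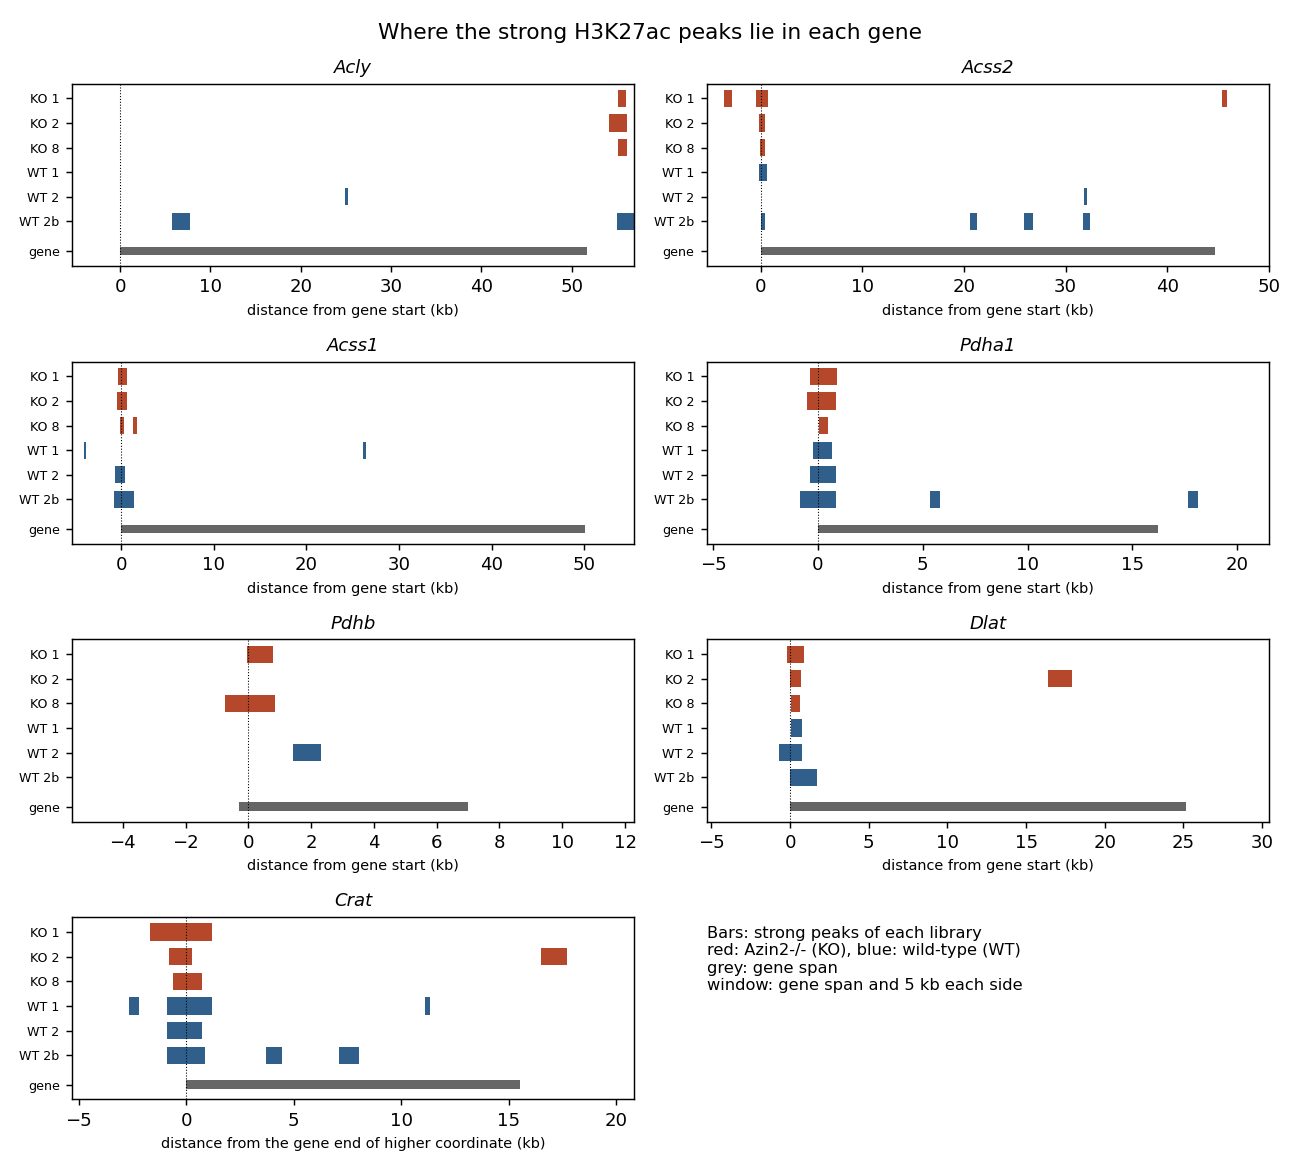
Strong H3K27ac peaks of each library (rows, Azin2-/- above wild-type, shown as KO and WT) along 7 acetyl-CoA supply genes, with distance in kb from the gene start (for Crat, from the gene end of higher coordinate) on the horizontal axis and the gene span in grey. Most peaks of Acss2, Acss1, Pdha1, Dlat and Crat gathered at position 0, while those of Acly lay mostly beyond the far end of the gene.

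The strong peaks within these windows numbered 54, and 30 of them reached to within 1 kb of the gene's own start or, for Crat, whose start is not in the reference, of its end of higher coordinate. For the 6 genes whose first base and strand are in RefSeq, 24 such peaks had their summit downstream of the start, 24 of 24, at 59 to 454 bp. Over all genes with a strong start peak, 74.1 to 77.5% of summits lay downstream, at a median of 139 to 179 bp, depending on the library. Peaks of 1 gene in different libraries share a position, so the 24 are not independent. Pdha1 and Dlat were among the 3143 of 17253 genes (18.2%) with a strong start peak in all 6 libraries, and Acss1 and Acss2 had one in 5 of 6, as at least 5 libraries showed for 4832 genes (28%). Acly was among the 7344 genes (42.6%) without one in any library.

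The stretch of 250 bases before the start is shown for the 4 genes marked there in 5 or 6 libraries and for Acly, the contrast to them, so that the bases just upstream of the starts can be compared. The summits themselves lay on the other side of the start. Sequences are from RefSeq on GRCm38.p6, read along the strand of the gene, and capitals mark the GC box, GGGCGG, and the CCAAT box, each also as its reverse complement. They are Acss2 at chr2:155517793-155518042 on the plus strand and, on the minus strand, Acss1 at chr2:150668241-150668490, Pdha1 at chrX:160138431-160138680, Dlat at chr9:50659781-50660030 and Acly at chr11:100528001-100528250.
Acss2: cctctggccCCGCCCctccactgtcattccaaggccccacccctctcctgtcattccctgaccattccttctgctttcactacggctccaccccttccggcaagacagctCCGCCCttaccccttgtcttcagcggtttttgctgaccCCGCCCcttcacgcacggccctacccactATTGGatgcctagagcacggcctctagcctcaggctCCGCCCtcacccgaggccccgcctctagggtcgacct
Acss1: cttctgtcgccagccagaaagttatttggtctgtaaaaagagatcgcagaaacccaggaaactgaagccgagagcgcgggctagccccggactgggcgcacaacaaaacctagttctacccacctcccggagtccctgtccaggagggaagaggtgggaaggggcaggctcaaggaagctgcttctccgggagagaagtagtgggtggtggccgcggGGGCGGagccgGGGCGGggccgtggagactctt
Pdha1: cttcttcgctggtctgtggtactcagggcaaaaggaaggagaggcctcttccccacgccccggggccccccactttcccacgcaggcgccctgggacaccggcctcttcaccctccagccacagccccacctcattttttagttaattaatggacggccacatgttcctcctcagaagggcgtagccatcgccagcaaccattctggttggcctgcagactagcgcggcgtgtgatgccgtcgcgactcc
Dlat: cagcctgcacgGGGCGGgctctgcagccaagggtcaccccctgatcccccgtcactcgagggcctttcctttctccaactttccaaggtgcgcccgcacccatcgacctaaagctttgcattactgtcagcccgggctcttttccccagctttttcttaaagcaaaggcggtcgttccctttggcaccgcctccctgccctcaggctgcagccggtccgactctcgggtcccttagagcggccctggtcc
Acly: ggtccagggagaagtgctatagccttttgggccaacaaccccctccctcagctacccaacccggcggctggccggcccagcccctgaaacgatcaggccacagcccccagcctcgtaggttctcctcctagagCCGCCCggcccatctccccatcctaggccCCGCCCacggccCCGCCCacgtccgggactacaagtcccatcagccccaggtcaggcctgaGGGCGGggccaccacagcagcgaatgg
The GC box was found in 5 of the 6 stretches searched, Pdhb included, against 43.2% of 17253 promoters. Acss2 and Acly held 4 each, Acss1 and Pdhb 2 each, Dlat 1 and Pdha1 none. The CCAAT box was found in 2 of 6, against 36.8% of promoters, with 1 copy in Acss2 and 3 in Pdhb. Both strands were searched, and no GC box overlapped a CCAAT box. The E-box CACGTG (6.74% of promoters), the sterol response element TCACNCCAC (0.997%), the C/EBP site TTGCGCAA (0.197%) and the TATA box TATAAA (12.5%) were in none of the 6. Acly, without a strong start peak, had the richest of these stretches in G and C, at 68.8%, against 61.6 to 64% for the other 5 and a median of 55.6% over all promoters. The presence of GC boxes thus did not separate the marked starts from the unmarked one in this small set, and a match of letters shows no bound factor.

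Acss2 makes acetyl-CoA from acetate in the cytosol and nucleus (chr2:155518043-155562743, plus strand). Its start held the strongest single peak of the set, at rank 79 in Azin2-/- replicate 1, with 33 reads at the summit over a background of 0.538. The ranks at the start were 79, 3966 and 9853 in Azin2-/- replicates 1, 2 and 8, against 5955, 30128 and 8288 in wild-type replicates 1, 2 and 2b. In wild-type replicate 2 the peak thus fell just outside the strong list, and it had 5 reads at its summit. Only Azin2-/- replicate 1 stood far above the rest, with 99.7% of genes having a weaker start peak or none there. The 27 reads of Azin2-/- replicate 8 stood over a background of 10.8, so a high pileup there went with a middling rank. Over the whole window, strong peaks covered 2400, 531 and 517 bp in Azin2-/- libraries, against 769, 289 and 2498 bp in wild-type libraries. The groups overlapped, each with 1 high library. In Azin2-/- replicate 1 an added 1234 bp lay at the ends of the neighbours Ggt7 and Gss, and in wild-type replicate 2b 2087 bp lay inside Acss2, away from its start. Here and below, means are of cover as deposited, whereas log2 differences were taken after each library was scaled to the same total cover and 500 bp were added, so the signs can differ. The means were 1149 ± 1083 bp in Azin2-/- libraries, against 1185 ± 1162 bp in wild-type ones (SD, n = 3 each), a log2 difference of −0.09 (SE 0.56, limma adjusted p = 0.977).

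Acss1, the mitochondrial enzyme of the same reaction (chr2:150618111-150668240, minus strand), had start peaks at rank 2587, 3002 and 3806 in Azin2-/- libraries, against 692056, 2107 and 3361 in wild-type libraries. In wild-type replicate 1, the library of shallowest background, the peak rested on 1 read, and the other 5 libraries had 9 to 24. Strong cover was 913, 1065 and 1042 bp in Azin2-/- libraries, against 495, 1103 and 2151 bp in wild-type libraries. The Azin2-/- values lay close together and inside the spread of the wild-type ones. The 495 bp of wild-type replicate 1 was made of a peak 26284 bp downstream of the start and one before the gene. The means were 1007 ± 81.9 bp in Azin2-/- libraries, against 1250 ± 838 bp in wild-type ones (SD, n = 3 each), a log2 difference of −0.16 (SE 0.43, limma adjusted p = 0.956).

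The pyruvate dehydrogenase complex was represented by Pdha1 and Pdhb, the alpha and beta subunits of its first enzyme, and by Dlat, its second enzyme, which carries the acetyl group to coenzyme A. Pdha1 (chrX:160122219-160138430, minus strand) had a strong start peak in every library, at rank 9327, 12844 and 6621 in Azin2-/- libraries, against 4236, 3596 and 972 in wild-type libraries. All 3 wild-type ranks were better than all 3 Azin2-/- ranks, but other measures of the same peaks overlapped. Their fold over background was 10.2, 4.15 and 3.49 in Azin2-/- libraries, against 4.45, 7.09 and 17.6 in wild-type libraries. Their summits had 12, 5 and 15 reads in Azin2-/- libraries, against 4, 9 and 30 in wild-type libraries. The order of ranks is a description, since ranks from lists made separately were not tested. How many of all genes separate so by rank was not counted. Strong cover over the window was 1305, 1382 and 458 bp in Azin2-/- libraries, against 936, 1222 and 2704 bp in wild-type libraries, and the groups overlapped. Azin2-/- replicate 8 was lowest and wild-type replicate 2b highest. In wild-type replicate 2b, 496 bp of the cover lay within the span of the neighbour Map3k15. The means were 1048 ± 513 bp in Azin2-/- libraries, against 1621 ± 949 bp in wild-type ones (SD, n = 3 each), a log2 difference of −0.52 (SE 0.42, limma adjusted p = 0.832), the largest below 0 in the set. Pdha1 is X-linked, and the labels do not give the sex of the animals.

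Pdhb (chr14:8165991-8173303, minus strand) had a strong start peak in Azin2-/- replicates 1 and 8, at rank 2141 and 6426 with 22 and 19 reads, and no row of any strength there in Azin2-/- replicate 2. In wild-type replicates 1, 2 and 2b the best ranks were 182296, 1159849 and 213863, with 2, 2 and 4 reads. A strong start peak was thus present in 2 of 3 Azin2-/- libraries and in 0 of 3 wild-type libraries. Of 17253 genes, 50.1, 36.7 and 35.7% had one in Azin2-/- replicates 1, 2 and 8. In wild-type replicates 1, 2 and 2b the shares were 28.8, 33.4 and 39.3%. Exactly 2 of the 6 libraries had one for 1004 genes (5.82%), and how these split by genotype was not counted. Strong cover was 819, 0 and 1613 bp in Azin2-/- libraries, against 0, 886 and 0 bp in wild-type libraries. The 886 bp of wild-type replicate 2 lay inside the gene, with the summit 1776 bp downstream of the start, and the groups overlapped at 0. The means were 811 ± 807 bp in Azin2-/- libraries, against 295 ± 512 bp in wild-type ones (SD, n = 3 each), a log2 difference of 0.62 (SE 0.80, limma adjusted p = 0.898). Pdhb reached the minimum cover for the test, a mean of 500 bp, only through the Azin2-/- libraries, so this p only describes the locus.

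Dlat (chr9:50634633-50659780, minus strand) had a strong start peak in every library, at rank 7251, 5073 and 7668 in Azin2-/- libraries, against 1409, 16293 and 6175 in wild-type libraries. The Azin2-/- ranks lay inside the wild-type range. Strong cover was 1070, 2207 and 596 bp in Azin2-/- libraries, against 694, 1433 and 1727 bp in wild-type libraries. Azin2-/- replicate 2 was highest because of a peak 16570 bp into the gene. The means were 1291 ± 828 bp in Azin2-/- libraries, against 1285 ± 532 bp in wild-type ones (SD, n = 3 each), and on the scaled log2 scale the difference was −0.13 (SE 0.44, limma adjusted p = 0.963). Thus 2 subunits of the complex were marked at the start in every library, and Pdhb was marked there in 2 of 6.

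**Figure D2:**
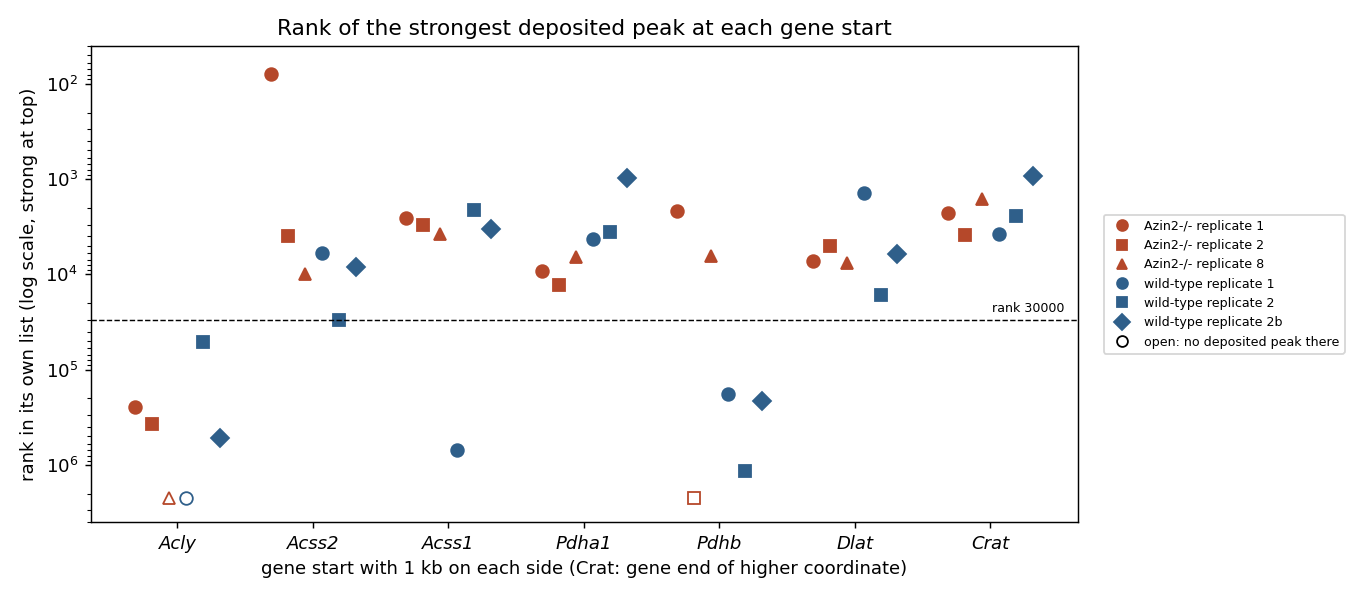
Rank of the strongest deposited peak within 1 kb of each gene start (for Crat, of the gene end of higher coordinate) in its own list. The axis is logarithmic with strong peaks at the top, for 3 Azin2-/- libraries (red, left in each gene) and 3 wild-type libraries (blue, right). Acss2 in Azin2-/- replicate 1 is highest at rank 79, and all points of Acly lie under the line at rank 30000.

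Acly, ATP citrate lyase (chr11:100476352-100528000, minus strand), returns exported citrate to acetyl-CoA in the cytosol and nucleus. The best ranks at its start were 249371 and 370242 in Azin2-/- replicates 1 and 2, with no row in replicate 8, against 51687 and 518744 in wild-type replicates 2 and 2b, with no row in replicate 1. The summits there had 2 to 4 reads. Strong cover of the window was 943, 1997 and 1002 bp in Azin2-/- libraries, against 0, 328 and 3548 bp in wild-type libraries. The Azin2-/- values lay inside the wild-type range, whose ends were wild-type replicates 1 and 2b. All of the Azin2-/- cover, and 1607 bp of that in wild-type replicate 2b, lay at the start of the neighbour Klhl11 (chr11:100457122-100472782, minus strand). Away from other genes' ends Acly had 0, 0 and 0 bp in Azin2-/- libraries, against 0, 328 and 1941 bp in wild-type libraries. The means over the window were 1314 ± 592 bp in Azin2-/- libraries, against 1292 ± 1961 bp in wild-type ones (SD, n = 3 each), a log2 difference of 0.61 (SE 0.68, limma adjusted p = 0.877), which therefore describes mainly the start of Klhl11.

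Crat, carnitine acetyltransferase (chr2:30400476-30416017), moves acetyl groups between coenzyme A and carnitine and so buffers the mitochondrial pool. Its strand and first base are not in the reference used, so its end of higher coordinate was read. That end lies 32 bp from the span of Ptpa, and peaks there cannot be told apart between the 2 genes. The strongest peaks there ranked 2263, 3908 and 1631 in Azin2-/- libraries, against 3767, 2458 and 918 in wild-type libraries, and the groups overlapped. Strong cover was 2887, 2268 and 1369 bp in Azin2-/- libraries, against 2752, 1620 and 3411 bp in wild-type libraries. In Azin2-/- replicate 2, 1214 bp of it lay within the span of the neighbour Dolpp1. A peak of 446 bp in wild-type replicate 1 lay within that of Ptpa. The means were 2175 ± 763 bp in Azin2-/- libraries, against 2594 ± 906 bp in wild-type ones (SD, n = 3 each), a log2 difference of −0.33 (SE 0.36, limma adjusted p = 0.876).

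**Figure D3:**
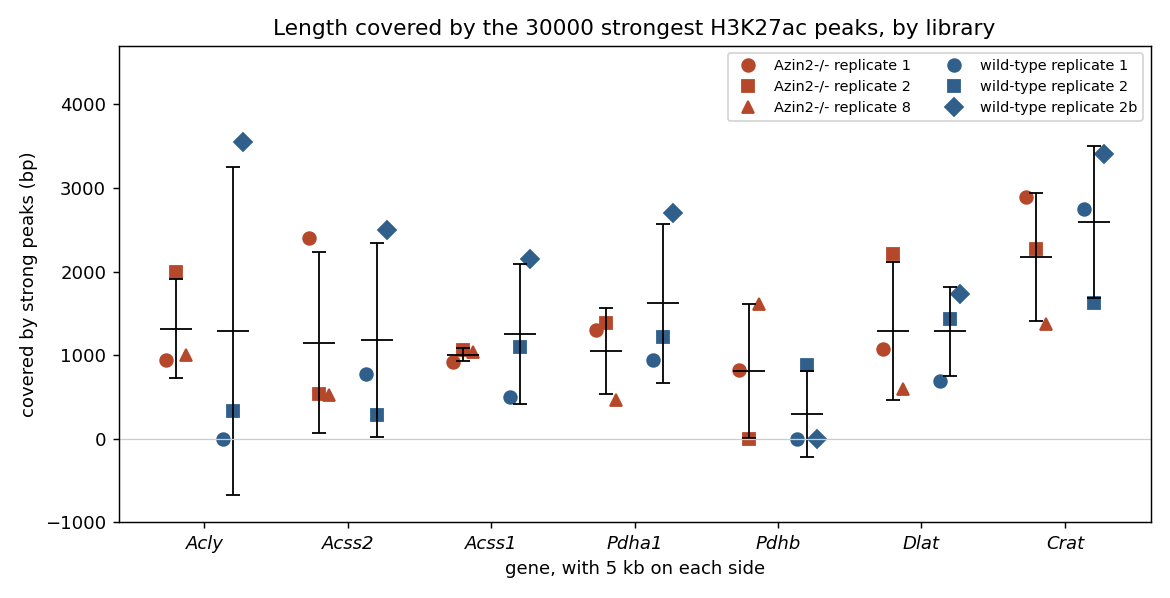
Base pairs covered by strong peaks in each gene with 5 kb on each side, for 3 Azin2-/- libraries (red, left) and 3 wild-type libraries (blue, right), with the mean and SD in black. The SD is drawn symmetrically and so reaches below 0 for Acly and Pdhb in wild-type, and the groups overlap in all 7 genes.

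Of the 7 genes tested, 0 passed the limma test at an adjusted p of 0.05, as did 0% of the 11687 gene loci tested. None reached an unadjusted limma p under 0.05, against 4.3% of all loci higher and 2.1% lower in Azin2-/-. In none did the genotypes fail to overlap after scaling, against 11.5% of all loci (6.66% higher and 4.86% lower in Azin2-/-). The log2 difference was above 0 in 2 genes, Acly and Pdhb, of which Pdhb was tested only through its Azin2-/- cover. It was below 0 in 5. The median of the 7 was −0.13, beside a median of 0.07 over all loci and a range from −0.89 at the 5th percentile to 1.19 at the 95th. Wild-type replicate 2b had the highest scaled cover in 4 of the 7 genes, beside 14.3% of all loci, and its own total cover was close to that of Azin2-/- replicate 1. Without that library the 7 differences ranged from −0.32 for Pdha1 to 1.41 for Acly, and those of Acss2 and Acss1 were above 0, at 0.31 and 0.073. With the window narrowed to 1 kb on each side of the start, a choice made after seeing the data, 5878 starts were tested. By limma 0% passed and 5.02% had an unadjusted p under 0.05. There Acss2 differed by 0.43, Acss1 by 0.12, Pdha1 by −0.35 and Dlat by −0.35 on the log2 scale, with limma adjusted p-values of 0.866, 0.971, 0.786 and 0.787. For Acss2 and Acss1 the sign thus differed from that over the whole window.

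The other genes of the pathway were read from 5 lists, 55 genes in all, of which 42 had enough cover to be tested. None of the 42 passed the limma test at an adjusted p of 0.05. Differences were above 0 in 17 and below 0 in 25, with a median of −0.07, beside 54.8% above 0 over all loci. An unadjusted limma p under 0.05 was found in 2 of the 42, beside 749 of all 11687 loci. The genotypes did not overlap after scaling in 5 of the 42, beside the 11.5% of all loci. Among these, Acss3 and Dbt reached the minimum cover for the test through their wild-type libraries, and Aacs through its Azin2-/- libraries. Their lack of overlap therefore only describes them. Around pyruvate dehydrogenase, 4 of 8 were above 0 and 4 below (median 0.05). Pdk2, a kinase that switches the complex off, had 1759, 616 and 1675 bp in Azin2-/- libraries, against 0, 797 and 467 bp in wild-type libraries (log2 difference 1.03, limma adjusted p = 0.778), and the groups overlapped. Its wild-type mean of 421 bp was under the minimum cover, so Pdk2 was tested through the Azin2-/- libraries and its p only describes the locus. Among genes of citrate formation and exchange 4 of 8 were above 0 and 4 below (median 0.01). Citrate synthase (Cs) differed by −0.01.

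Among genes of acetate, carnitine and acetyl transfer, 5 of 9 were above 0 and 4 below (median 0.08). Acss3, a mitochondrial acyl-CoA synthetase related to Acss1 (chr10:106933514-107123761), had no strong peak in any Azin2-/- library, against 1558, 1181 and 826 bp in wild-type libraries. It had the smallest p of the 42 (limma unadjusted p = 0.0146, adjusted p = 0.752). It reached the minimum cover for the test through the wild-type libraries alone, so this p only describes the locus. The best ranks in its window were 59231, 44410 and 47713 in Azin2-/- libraries, against 5880, 13003 and 22178 in wild-type libraries, and none of the strong summits lay within 1 kb of an end of the gene. Peaks of any strength covered 22521, 18621 and 19767 bp in Azin2-/- libraries, against 18567, 18375 and 32798 bp in wild-type libraries, where the groups overlapped. Aacs, the cytosolic enzyme that activates acetoacetate, had 1811, 1743 and 692 bp in Azin2-/- libraries, against 0, 307 and 742 bp in wild-type libraries (log2 difference 1.21, limma adjusted p = 0.777). Its values overlapped as deposited and did not after scaling. Aacs had a wild-type mean of 350 bp and reached the minimum cover through the Azin2-/- libraries, so its p only describes the locus.

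Among genes that release acetyl-CoA from fatty acids and amino acids, 0 of 9 were above 0 and 9 below (median −0.21), and none passed the test. Over all loci 54.8% were above 0. The count moved with the processing, to 2 of 9 above 0 without scaling, 3 of 10 over all deposited peaks, 3 of 8 without wild-type replicate 1 and 3 of 9 without Azin2-/- replicate 8. Hadha and Hadhb, subunits of the mitochondrial trifunctional protein, and Acaa1a and Acaa1b, near-identical peroxisomal thiolases, can share reads or windows, so these 9 are not 9 separate loci. Dbt, a subunit of branched-chain ketoacid dehydrogenase, had 461, 0 and 218 bp in Azin2-/- libraries, against 355, 1332 and 900 bp in wild-type libraries (log2 difference −0.96, limma adjusted p = 0.791). The values of Dbt overlapped as deposited and did not after scaling. Its mean was 226 bp in Azin2-/- libraries, against 862 bp in wild-type ones. Dbt thus reached the minimum cover for the test through the wild-type libraries, and its p only describes the locus. Among cytosolic users and their regulators 4 of 8 were above 0 and 4 below (median 0.17). Mlxipl, the glucose-responsive factor ChREBP, had 2395, 1091 and 2499 bp in Azin2-/- libraries, against 688, 893 and 717 bp in wild-type libraries (log2 difference 0.82, limma adjusted p = 0.778), and the groups did not overlap. Acaca, acetyl-CoA carboxylase, had 3200, 788 and 2711 bp in Azin2-/- libraries, against 2146, 2906 and 3855 bp in wild-type libraries (log2 difference −0.57, limma adjusted p = 0.807). Fasn, fatty acid synthase, had a strong start peak in all 6 libraries, whereas Acaca and Acacb, the acetyl-CoA carboxylases, had one in 0 libraries, as did Acly. Only the outermost start of each gene was read, so other starts are not covered. Acaca had strong cover in all 6 libraries. In Azin2-/- replicates 1 and 8 and wild-type replicate 2 it had a strong peak within 1 kb of an end of its span.

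**Figure D4:**
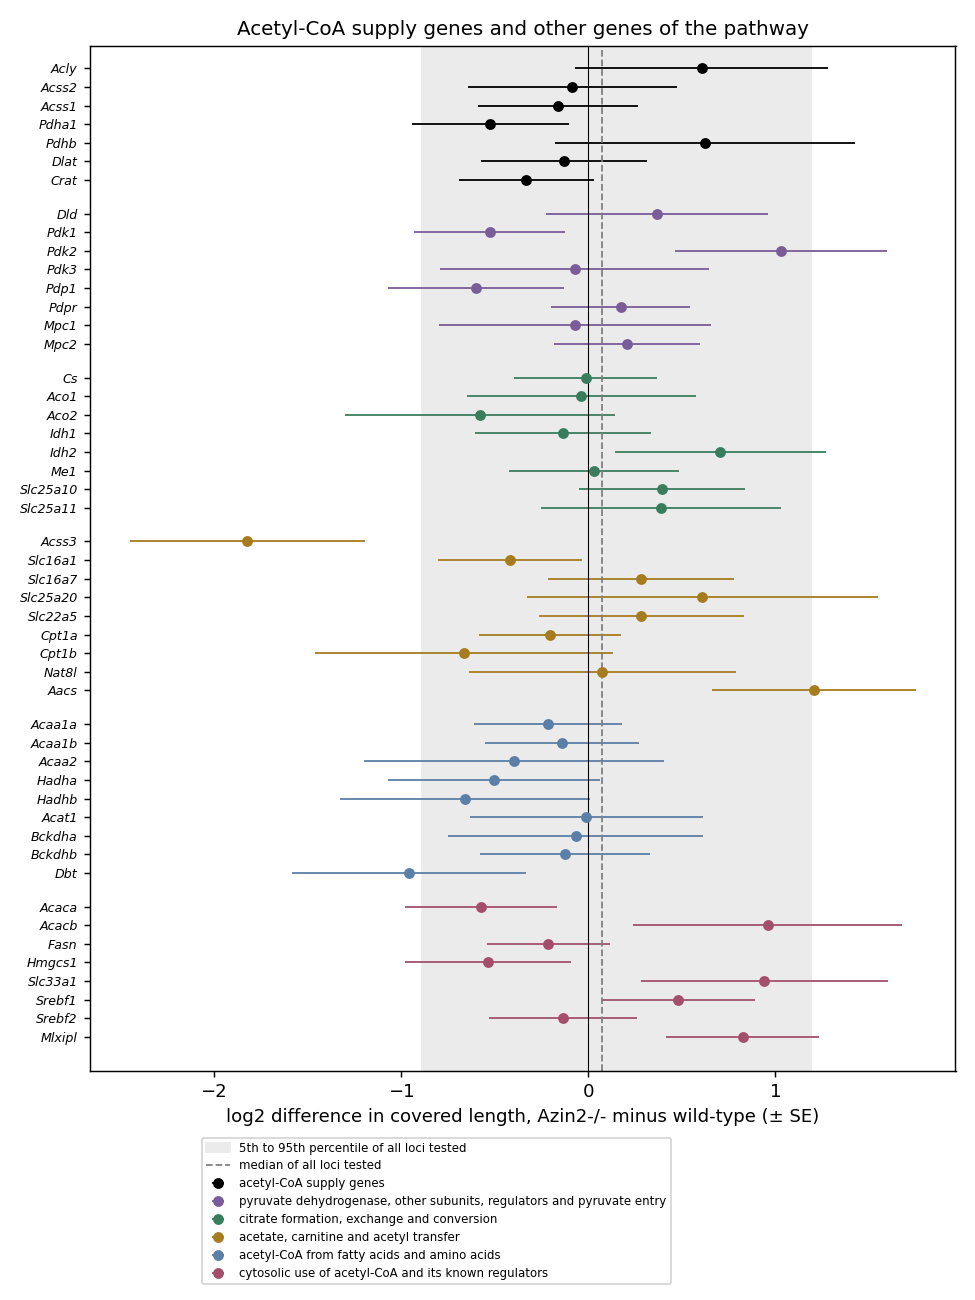
Log2 difference in strong cover, Azin2-/- minus wild-type, with its SE, for 7 acetyl-CoA supply genes and 42 other genes of the pathway in 5 lists. The grey band is the 5th to 95th percentile of all loci tested, −0.89 to 1.19, and the dashed line their median, 0.07. All 7 supply genes lie inside the band.

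The loci whose 6 log2 covers lay closest to those of each gene, by Euclidean distance, were Tyrobp for Acly (0.578), Shq1 for Acss2 (0.568), Elavl1 for Acss1 (0.386), Kremen1 for Pdha1 (0.331), Opa1 for Pdhb (0.439), Cnp for Dlat (0.451) and Hnrnpl for Crat (0.375). Each was the nearest of all loci outside the gene's own window, over 6 libraries only. Opa1, for instance, had 1010, 0 and 2055 bp in Azin2-/- libraries, against 0, 641 and 0 bp in wild-type libraries, the same alternation of present and absent as Pdhb.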

How the data were processed

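H3K27ac was measured in 6 libraries, 3 Azin2-/- and 3 wild-type; the 6 input libraries were not analysed here. The authors deposited 1 list of peaks per library, with mm10 (GRCm38) named as the build in the submitters' processing notes. The sources used here do not name the aligner, caller or control, or how duplicates were handled. Per peak, a deposited list holds a score (10 times its -log10 p, cut to a whole number), a fold ratio of the summit over local background, and a -log10 p-value and q-value. These are the authors' own values and served only to rank, filter and describe peaks within a list. From fold and p, each summit's whole-number pileup and its background were recovered, taking the fold to have a pseudocount of 1. In a check with a tolerance of 0.001 (log10), 100% of sampled peaks came out whole, against 3.40 to 4.53% after a random shift of the p.

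The 30000 peaks of smallest p on chromosomes 1 to 19 and X were kept in each library, with fold and then position deciding ties. Their p at the last rank was 6.88e-05 to 0.000295. RefSeq gave 21631 protein-coding genes on chromosomes 1 to 19 and X, of which 130 whose listed end lay before the first peak of the chromosome were left out. Gene starts and strands were in RefSeq for 17253 genes, all of the 8 but Crat. Where a gene had several starts, the outermost was used. Cover in base pairs in each gene window was set to the same total in every library and 500 bp were added before the log2, for loci with a mean of at least 500 bp. Differences are Azin2-/- minus wild-type on this scale, which understates changes of low loci. They were tested with limma 3.58.1 (eBayes with a trend, R 4.3.3) and Benjamini-Hochberg adjustment at 0.05 over all loci, after a test on simulated data. Other steps used Python 3.11.15.

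The 8 genes, the pathway and marker lists and the tests were chosen with earlier results of these data known. Named besides the 8 are the 3 pathway genes of smallest p in each direction, the most alike locus of each gene and neighbours under strong peaks. Hmgcs1, Acat2, Cpt2, Cs, Fasn, Pdk4 and Pdhx were named after their values were seen. Acacb, Hadha, Hadhb, Acaa1a and Acaa1b were also named outside this rule. Wild-type replicates 2 and 2b shared 0 identical strong peaks of 30000 and were kept as 2 libraries. Alternatives were other list lengths, thresholds, windows, scalings, pseudocounts and peak widths, the replicate number as a block, and each library left out.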

Additional observations from a re-analysis of the deposited data

How the results depend on the processing

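The difference was smaller than its SE in 6 of the 7 genes and larger in Pdha1. The sign held in every alternative for Crat, changed in 1 for Acly, Pdha1 and Pdhb each, and changed in several for Acss2, Acss1 and Dlat. In all alternatives run, no gene of the 7 passed the limma adjusted p of 0.05, the adjusted p ranging from 0.648 to 1.00. The differences of opposite sign to the main ones, on the log2 scale, were as follows. With all deposited peaks Acly gave −0.12, Acss2 0.050, Acss1 0.077, Pdha1 0.0035 and Pdhb −0.27. With the 10000 strongest peaks Acss2 gave 0.44, Acss1 0.27 and Dlat 0.16, and with the 60000 strongest Acss2 gave 0.060 and Acss1 0.12. At a q of 0.01 or less Acss1 gave 0.18 and Dlat 0.31. At both gene ends Acss2 gave 0.51 and Acss1 0.12, and at the start alone 0.43 and 0.12. Without scaling Acss2 gave 0.0062, and with fixed windows Dlat gave 0.19. With the replicate number as a block Acss2 gave 0.50 and Dlat 0.18. The cause was not tested.

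Leaving out each library in turn gave 0.01 to 1.41 for Acly, −0.52 to 0.31 for Acss2, −0.40 to 0.073 for Acss1, −0.73 to −0.26 for Pdha1, 0.37 to 1.19 for Pdhb, −0.51 to 0.12 for Dlat and −0.59 to −0.11 for Crat. The sign of Acss2 changed without Azin2-/- replicate 2, Azin2-/- replicate 8 or wild-type replicate 2b, that of Acss1 without wild-type replicate 2b, and that of Dlat without Azin2-/- replicate 1 or 8. The number of loci past the threshold was 0, and it stayed 0 in each of these. It was 26 at a q of 0.01 or less, 49 with fixed windows and 17 with the replicate block, which was run on replicates 1 and 2 of each genotype only and so also drops 2 libraries, none of them among the 7 genes. Replicate numbers 1 and 2 recur in both genotypes, but deviations of same-numbered libraries correlated at −0.04 and 0.12, which with only 2 pairs does not meet the rule for pairing. The second is the highest of the 9 pairs of libraries. With the block, 4 of 9 genes of fatty and amino acid breakdown were above 0 (median −0.00082). Acly and Pdhb fell under the minimum cover at gene ends, at starts and with fixed windows, and Pdhb also with 10000 peaks, with the block, and without Azin2-/- replicate 8 or wild-type replicate 2. Without scaling the median of all loci was 0.17. Of the libraries with a strong peak at a gene end, Pdhb had 3 with 2 kb windows, Acss2 4 and Dlat 5 at a q of 0.01 or less, and Pdha1 and Dlat 5 with 10000 peaks.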

Other observations

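Of 12 genes of the pathway with some strong cover but too little for the test, 2 did not overlap between genotypes as deposited, both higher in Azin2-/-. Among all 6161 such genes 2.78% did not overlap, 2.08% being higher in Azin2-/-. They were chosen after their values were seen, and no test was made. Acat2, the cytosolic thiolase that joins acetyl-CoA units towards sterols (chr17:12943042-12960725), had 891, 532 and 1118 bp of strong peaks in Azin2-/- libraries, against none in the 3 wild-type libraries. The best ranks in its window were 13684, 14301 and 29125 in Azin2-/- libraries, against 45483, 127780 and 128751 in wild-type libraries. Peaks of any strength covered 3929, 5243 and 4384 bp in Azin2-/- libraries, against 4051, 5627 and 3216 bp in wild-type libraries, and overlapped. Cpt2, the inner carnitine palmitoyltransferase (chr4:107903982-107923589), had 887, 475 and 873 bp of strong peaks in Azin2-/- libraries, against 250, 0 and 0 bp in wild-type libraries. Its best ranks were 11701, 23291 and 5282 in Azin2-/- libraries, against 4266, 71651 and 58689 in wild-type libraries, so the strongest was in wild-type replicate 1. Peaks of any strength covered 4621, 5916 and 2768 bp in Azin2-/- libraries, against 4892, 7985 and 7073 bp in wild-type libraries, and overlapped. Pdk4 and Pdhx had strong peaks in Azin2-/- replicate 1 alone, of 833 and 1045 bp.

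Hmgcs1, the cytosolic enzyme of the next sterol step, had a strong peak in all 6 libraries, with 878, 415 and 721 bp in Azin2-/- libraries, against 752, 876 and 1798 bp in wild-type libraries. These overlapped as deposited and did not after scaling (log2 difference −0.53, limma adjusted p = 0.839).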
